A study of Mus musculus with 6 samples.

Results

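Pseudogenes that carry the name of a parent gene followed by -ps were described in small RNA libraries of mouse hearts with and without Elac2. They were chosen by name and by their summed counts: the features that the authors' deposited table types as a pseudogene, that have -ps in the name and that had at least 20 raw counts summed over the 6 libraries. This rule gave 96 pseudogenes of 75 parent genes, 43 with a ribosomal protein parent (Rpl, Rplp, Rps or Rpsa) and 53 with another parent. They were 96 of 1316 pseudogenes named in this way, 878 of which had 0 counts in every library, and of 30638 features in all. Because the rule used the summed counts, it favoured pseudogenes that were abundant in at least 1 of the groups: 91 of the 96 had fewer than 20 counts in the knockout libraries together and 7 had fewer than 20 in the control libraries together. Counts and medians over the 96 are therefore a description of this set.

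The 3 knockout mice (L/L, cre) were labelled Elac2 -/-, with a loxP-flanked exon of Elac2 excised by a cre that is expressed from the muscle creatine kinase promoter. The 3 control mice (L/L) were labelled Elac2 +/+, although their titles describe the floxed alleles, and no cre is named for them. All 6 were C57BL/6 mice, and RNA came from crude hearts, which also hold cells other than muscle. Elac2 encodes RNase Z, which removes the 3′ trailer from precursor tRNAs, and the study asked how its loss changes the small RNAs of the heart. Inserts of 15 to 100 nt were sequenced, with 4 technical replicates per mouse according to the design text, and each mouse has 1 column of counts. The sources used here state no ages or sexes in words, and the code M4W at the start of the sample names is not explained in them.

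A processed pseudogene arises when the machinery of a retrotransposon copies a spliced mRNA into DNA and inserts it elsewhere in the genome, without the introns and usually without the promoter of the parent. Genes with abundant mRNA in the germ line, ribosomal protein genes above all, have left many such copies. An unprocessed pseudogene arises by duplication of a gene and can keep its introns. Where a copy is still close to its parent, a short read from the parent's mRNA can match both, so a count on the pseudogene does not show that the pseudogene was transcribed. The parents' own mRNAs were not analysed here, and the sources used here do not say how reads with several matches were counted. Every value below is therefore a count assigned to a pseudogene and is uncertain as to its source.

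Of the 96, the authors' deposited table typed 84 as processed, 5 as transcribed processed, 4 as unprocessed, 2 as transcribed unprocessed and 1 with no further detail. Positions from GENCODE M21 (GRCm38, the build named mm10) were found for 95 of the 96 gene IDs; Tes3-ps was not matched. The 95 lay on 21 chromosomes, 44 on the plus strand and 51 on the minus strand. An exon of another gene overlapped 7 of them, an intron of another gene only held 31, and 57 lay outside other genes. The 7 were Rps23-ps1, Got2-ps1, Scp2-ps2, Ube2d-ps, Wsb2-ps and Hsp25-ps1, which lie opposite Gm5148, Gm10874, Gm47162, Urgcp, Gm27194 and Gm9817, and Rpl19-ps11, which shares its strand with the miRNA gene Gm27288. Whether reads were counted by strand is not given, so these 7 counts are uncertain for that reason too. GENCODE M21 lists Rpl36a-ps1 as protein-coding and names Cox20-ps as Cox20b.

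The sequences below show how near the copies with the most counts, and the ribosomal protein pair nearest to equal levels, stand to their parents. For each family they give the stretch of 120 coding bases, without gaps, in which the copies differ most from the parent. Capitals mark bases that differ from the parent. Sequences are from GENCODE M21 transcripts (GRCm38), 5′ to 3′ on the strand of each gene. Hspd1, on chromosome 1 (minus strand), encodes the mitochondrial chaperonin Hsp60, and its coding bases 753 to 872 are shown. Hspd1-ps3 (ENSMUSG00000058809.8) is at chr11:41499489-41499608 (plus strand) with 2 differences, and Hspd1-ps4 (ENSMUSG00000081189.1) at chr4:106136913-106137032 (minus strand) with 18.
Hspd1: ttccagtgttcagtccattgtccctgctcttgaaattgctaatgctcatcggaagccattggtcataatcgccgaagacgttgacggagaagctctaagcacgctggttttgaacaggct
Hspd1-ps3: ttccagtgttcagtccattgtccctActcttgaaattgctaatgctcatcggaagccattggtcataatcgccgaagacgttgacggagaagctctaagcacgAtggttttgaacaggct
Hspd1-ps4: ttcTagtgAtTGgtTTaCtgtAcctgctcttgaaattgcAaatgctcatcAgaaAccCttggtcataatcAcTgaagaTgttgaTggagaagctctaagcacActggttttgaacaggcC

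Fabp3, on chromosome 4 (plus strand), encodes the fatty acid binding protein of heart muscle, and its coding bases 215 to 334 are shown. Fabp3-ps1 (ENSMUSG00000056366.5) is at chr10:86732055-86732174 (minus strand), within an intron of Ttc41 on the other strand, with 2 differences.
Fabp3: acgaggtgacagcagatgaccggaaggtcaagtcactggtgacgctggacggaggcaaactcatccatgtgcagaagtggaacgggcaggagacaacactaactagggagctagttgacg
Fabp3-ps1: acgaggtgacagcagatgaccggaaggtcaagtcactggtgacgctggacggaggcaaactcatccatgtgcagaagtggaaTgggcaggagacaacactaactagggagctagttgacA

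Tpt1, on chromosome 14 (plus strand), encodes the translationally controlled tumour protein, and its coding bases 1 to 120 are shown. Tpt1-ps3 (ENSMUSG00000084319.3) is at chr6:99878215-99878334 (minus strand) with 0 differences, Tpt1-ps6 (ENSMUSG00000084284.1) at chrX:101768535-101768654 (plus strand) with 1 and Tpt1-ps5 (ENSMUSG00000059252.5) at chr9:37696515-37696634 (plus strand) with 6.
Tpt1: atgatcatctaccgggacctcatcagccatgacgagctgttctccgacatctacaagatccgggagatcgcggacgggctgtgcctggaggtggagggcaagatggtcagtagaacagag
Tpt1-ps3: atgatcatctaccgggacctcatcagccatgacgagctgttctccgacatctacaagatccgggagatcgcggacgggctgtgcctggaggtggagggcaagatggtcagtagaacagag
Tpt1-ps6: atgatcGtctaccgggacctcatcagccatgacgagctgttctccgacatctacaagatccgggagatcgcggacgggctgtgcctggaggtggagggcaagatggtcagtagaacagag
Tpt1-ps5: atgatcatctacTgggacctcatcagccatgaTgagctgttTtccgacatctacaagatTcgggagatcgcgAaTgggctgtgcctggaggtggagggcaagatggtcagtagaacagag

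Rps10, on chromosome 17 (minus strand), encodes a protein of the small ribosomal subunit, and its coding bases 354 to 473 are shown. Rps10-ps1 (ENSMUSG00000060438.5) is at chr3:95622631-95622750 (plus strand) with 2 differences, and Rps10-ps2 (ENSMUSG00000099764.1) at chr16:20822168-20822287 (minus strand) with 5.
Rps10: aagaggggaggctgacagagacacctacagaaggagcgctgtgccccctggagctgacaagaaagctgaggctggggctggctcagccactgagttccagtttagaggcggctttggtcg
Rps10-ps1: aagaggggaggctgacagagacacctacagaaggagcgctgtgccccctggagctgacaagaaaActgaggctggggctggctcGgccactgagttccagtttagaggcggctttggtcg
Rps10-ps2: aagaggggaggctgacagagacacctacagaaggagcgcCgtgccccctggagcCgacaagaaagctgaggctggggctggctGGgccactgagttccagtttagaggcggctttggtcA

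Rpl9, on chromosome 5 (minus strand), encodes a protein of the large ribosomal subunit, and its coding bases 118 to 237 are shown. Rpl9-ps4 (ENSMUSG00000094989.1) is at chr13:72455104-72455223 (minus strand) and Rpl9-ps7 (ENSMUSG00000047965.9) at chr2:70459099-70459218 (plus strand), each with 1 difference.
Rpl9: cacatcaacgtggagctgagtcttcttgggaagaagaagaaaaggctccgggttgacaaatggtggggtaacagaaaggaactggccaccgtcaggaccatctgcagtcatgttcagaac
Rpl9-ps4: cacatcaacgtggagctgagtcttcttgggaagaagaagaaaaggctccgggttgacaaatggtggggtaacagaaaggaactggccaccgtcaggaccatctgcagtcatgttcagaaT
Rpl9-ps7: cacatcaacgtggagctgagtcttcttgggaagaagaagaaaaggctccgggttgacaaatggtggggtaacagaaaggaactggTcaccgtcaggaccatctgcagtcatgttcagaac

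Each of the 95 transcripts with a sequence was aligned by BLASTN to the protein-coding transcripts of GENCODE M21. The median identity to the best match was 98.9%, and the lowest was 80.5%, of Fth-ps2 to Fth1. The 43 with a ribosomal protein parent had a median identity of 99.3%, and the 52 others with a sequence had one of 97.5%. In 11 the copy was identical to a coding transcript over its full length: Rpl10a-ps1, Rps6-ps4, Rpl31-ps8, Rps13-ps2, Rps16-ps2, Rpl36a-ps2, Rpl15-ps3, Rpl10-ps1, Rpl28-ps1 and Rps23-ps1, with ribosomal protein parents, and Tpt1-ps3. Of the 95, 79 held an unbroken run of at least 100 nt shared with the best match, the longest insert the libraries kept. The other 16 held shorter runs, down to 14 nt in Ube2d-ps, and Hspd1-ps4, the member with the most counts, had a longest shared run of 58 nt. The best match carried the parent's name in 77. In the other 18 its name differed, in several as a newer name of the same gene (Prdx2 for Tdpx-ps1, Hspb1 for Hsp25-ps1, Glul for Glns-ps1 and Fth1 for both Fth copies).

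The libraries held between 14505705 and 15271036 counts in knockout hearts and between 13510061 and 16248673 in control hearts. Features with at least 1 count numbered 2995 to 3160 in knockout libraries and 4664 to 6018 in control libraries. No pair of libraries came near sampling noise, with a lowest chi-square per degree of freedom of 79.1. The targeted gene gave no check of the genotypes, since the mRNA of Elac2 was not analysed here. All 7 heart muscle miRNA genes listed as tissue markers were found, at a summed level of 72669 to 93284 CPM (counts per 1000000 of the scaled library) in knockout hearts and 117837 to 148037 CPM in control hearts. Of these 7, Mir1a-1 and Mir1a-2 passed the test as lower in knockout hearts and Mir208b as higher. Marker miRNAs of red cells (3 of 3 found) summed to 2205 to 2921 CPM in knockout hearts and 2644 to 3696 CPM in control hearts, with Mir486 lower and Mir144 higher. Those of leukocytes summed to 159 to 193 CPM in knockout hearts and 125 to 156 CPM in control hearts, with Mir155 and Mir223 at 0. Of the leukocyte markers, Mir150 was lower and Mir142 was not called (log2 fold change 0.51, edgeR adjusted p = 0.0751). Those of vessels and fibroblasts summed to 41003 to 51753 CPM in knockout hearts and 46840 to 58035 CPM in control hearts, with Mir199a-2 and Mir214 at 0 and Mir199a-1 higher. The part of these cell types in the results for the pseudogenes was not tested.

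The 96 pseudogenes together took up less of every knockout library than of every control library. They held 171, 165 and 120 counts in knockout hearts, against 1043, 2911 and 2831 counts in control hearts. As a share of all counts this was 0.00102% ± 0.000195 in knockout hearts and 0.0145% ± 0.00584 in control hearts (SD, n = 3 each), 14.2 times less. Of the 96 pseudogenes, 56, 56 and 49 had at least 1 count in the knockout libraries, and 96 had in each control library. The share of all 1316 pseudogenes named with -ps, which no minimum on counts had chosen, was 0.00145% ± 0.000204 in knockout hearts and 0.0177% ± 0.00708 in control hearts (SD, n = 3 each), 12.2 times less.

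Ribosomal protein copies and the other copies showed the difference alike in direction. Copies with a ribosomal protein parent held 60, 43 and 38 counts in knockout hearts, against 290, 776 and 695 in control hearts. Their share was 0.000316% ± 8.52e-05 in knockout hearts and 0.00376% ± 0.00141 in control hearts (SD, n = 3 each), 11.9 times less. Copies with another parent held 111, 122 and 82 counts in knockout hearts, against 753, 2135 and 2136 in control hearts. Their share was 0.000704% ± 0.000136 in knockout hearts and 0.0107% ± 0.00444 in control hearts (SD, n = 3 each), 15.2 times less. In both classes every knockout library was below every control library. Ribosomal protein copies made up 35.1%, 26.1% and 31.7% of the member counts in knockout libraries, against 27.8%, 26.7% and 24.5% in control libraries. The exact 95% intervals of these parts ran from 28.0% to 42.7%, 19.5% to 33.5% and 23.5% to 40.8% in knockout libraries, against 25.1% to 30.6%, 25.1% to 28.3% and 23.0% to 26.2% in control libraries. The intervals cover counting error only, and whether the 2 classes differ in size of change was not tested.

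**Figure D1:**
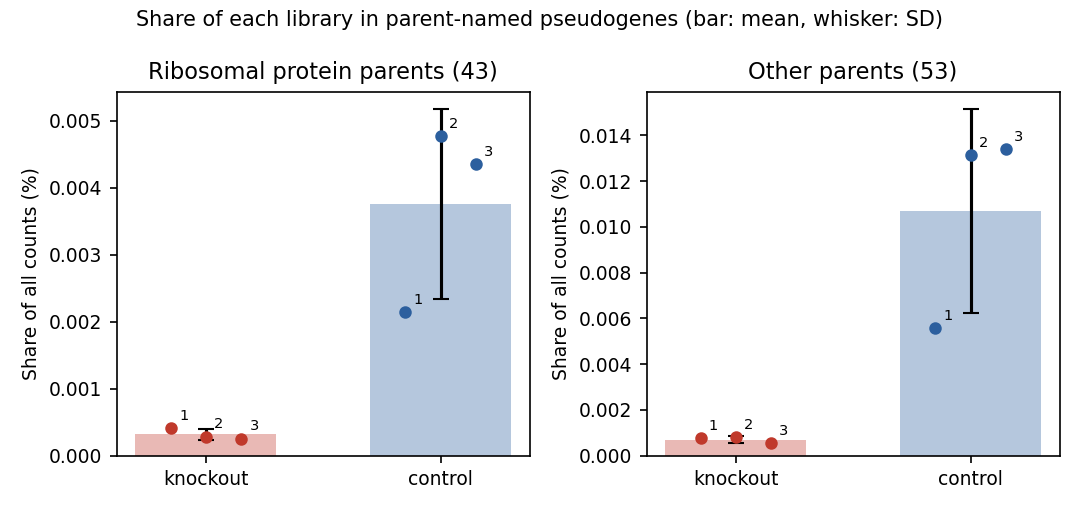
Share of all counts (%, linear axes from 0, a separate scale per panel) held by copies with a ribosomal protein parent (left) and another parent (right) in 3 knockout and 3 control libraries. Points are libraries with their replicate number, bars are means and whiskers SDs. In both panels the 3 knockout points lie below the control points, and control replicate 1 lies below control replicates 2 and 3.

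Control replicate 1 was low among the controls. The share of the 96 in it was 0.433 times the mean of control replicates 2 and 3, and 89 of the 96 were lower in it than in both others. For the middle member the ratio was 0.391, against 0.777 for the middle one of all 1916 features with the same minimum of 20 summed counts. Among the 404 other pseudogenes with that minimum the middle ratio was 0.369. Fragments of mitochondrial mRNAs showed the same order, with 0.812% of counts in control replicate 1 against 2.11% and 1.67% in the others. With that library left out, the share of ribosomal protein copies differed by a log2 ratio of -3.85, against -3.57 with all libraries, and that of other copies by -4.24, against -3.93.

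Other RNA classes also lay apart between the groups. Mitochondrial mRNA fragments held 0.0849% ± 0.0173 of knockout counts and 1.53% ± 0.658 of control counts, 18 times less. Pseudogenes without -ps in the name held 0.00573% ± 0.000861 of knockout counts and 0.0714% ± 0.0309 of control counts, 12.5 times less. Mature nuclear tRNAs held 0.452% ± 0.103 against 3.34% ± 0.569 (SD, n = 3 each for all 3 classes). Small nucleolar and small Cajal body RNAs held 62.9% ± 1.21 of knockout counts and 41.0% ± 1.65 of control counts. The part of these classes in the result for the pseudogenes was not tested, and in whole hearts fewer cells of a type and less RNA per cell cannot be told apart.

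Feature by feature, the 22 members with enough counts for edgeR's quasi-likelihood test were examined in a fit across 1144 features with Benjamini-Hochberg adjustment. Of all features tested, 27.0% were called lower (309) and 23.2% higher (265) in knockout hearts at an adjusted p under 0.05. This split hung on the scaling: 431 were lower and 170 higher by total counts, 534 and 134 with factors from snoRNA features, and 228 and 406 with factors from snRNA and rRNA features. Of the 22 pseudogenes, 21 were lower and 0 higher, 7 of 7 with a ribosomal protein parent and 14 of 15 with another, and under those scalings 21, 22 and 19 were lower. Their median log2 fold change was -4.02, beside -0.01 over all features tested. In all 22 the knockout libraries were below the control libraries without overlap, as they were in 33.7% of all features tested. Only 5 of the 22 had 20 or more counts in the knockout libraries (Hspd1-ps4, Vmn1r-ps126, Hspa9-ps1, Fabp3-ps1 and Dnd1-ps), so most passed the minimum through the control libraries. Without control replicate 1 the fit took 64 members, of which 63 were lower, beside 39.6% of all features in that fit. Without knockout replicate 1, 2 or 3 it took 65, 64 and 65, of which 55, 54 and 52 were lower, beside 31.0%, 31.3% and 30.6% of all features in those fits.

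**Figure D2:**
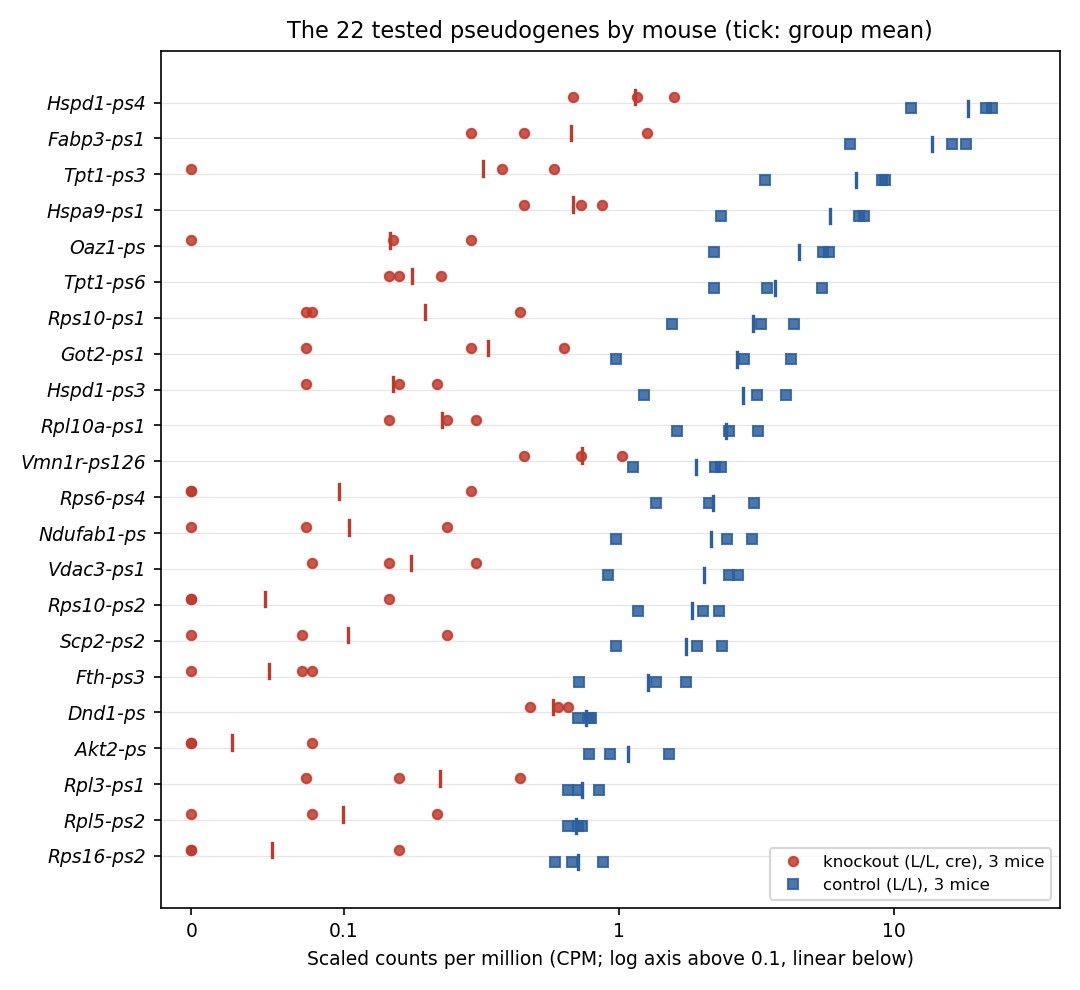
Scaled counts, as CPM (log axis above 0.1, linear below) of the 22 tested pseudogenes in 3 knockout mice (circles) and 3 control mice (squares); ticks are group means. Knockout points lie left of control points in every row, and the narrowest gap is that of Dnd1-ps.

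Counts were concentrated in few members: Hspd1-ps4 and Fabp3-ps1 held 24.5% of the 7241 counts of the set and the top 10 held 49.3%. Hspd1-ps4, the more divergent copy of the chaperonin gene, had 16, 20 and 9 counts in knockout hearts, against 177, 403 and 395 counts in control hearts. On the CPM scale it averaged 1.141 ± 0.453 in knockout hearts and 18.6 ± 6.17 in control hearts (SD, n = 3 each), a log2 fold change of -4.02 (SE 0.37, edgeR adjusted p = 5.92e-06). Each SE beside an edgeR value was derived from the test, as the absolute log2 fold change over the square root of its F statistic. It is no fitted standard error and can be too small where knockout counts are near 0. No knockout library came near the lowest control library. Hspd1-ps3, the copy closer to Hspd1, had 3, 2 and 1 counts in knockout hearts, against 19, 72 and 58 in control hearts, with a log2 fold change of -4.16 (SE 0.59, edgeR adjusted p = 0.000133). Hspd1-ps4 is 92.6% identical to Hspd1 and held 1020 counts in all over 1668 nt, and Hspd1-ps3 is 99.0% identical and held 155 over 1722 nt.

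Chaperone copies with a parent name starting with Hsp or Dnaj counted 5, of Hspd1, Hspa9, Dnajc19 and Hsp25. Hspa9-ps1, a copy of the gene of the mitochondrial Hsp70, had 10, 11 and 6 counts in knockout hearts, against 36, 132 and 142 in control hearts. Its log2 fold change was -3.09 (SE 0.48, edgeR adjusted p = 0.000257), and the groups did not overlap. The other 2 were read only in the wider test that follows.

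Fabp3-ps1, a copy of the gene of the heart fatty acid carrier, had 4, 16 and 6 counts in knockout hearts, against 106, 324 and 296 in control hearts. It averaged 0.669 ± 0.523 CPM in knockout hearts and 13.8 ± 6.05 CPM in control hearts (SD, n = 3 each), a log2 fold change of -4.37 (SE 0.51, edgeR adjusted p = 3.21e-05). Knockout replicate 2 was the highest of its group and still below every control library.

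Of the 3 Tpt1 copies, 2 were called lower. Tpt1-ps3, whose sequence is that of the parent transcript throughout, had 8, 0 and 5 counts in knockout hearts, against 52, 165 and 166 in control hearts, a log2 fold change of -4.45 (SE 0.61, edgeR adjusted p = 0.000111). Tpt1-ps6 had 2, 2 and 3 counts in knockout hearts, against 34, 61 and 100 in control hearts, a log2 fold change of -4.34 (SE 0.49, edgeR adjusted p = 2.57e-05). Tpt1-ps5 had 3, 0 and 4 counts in knockout hearts, against 4, 13 and 6 in control hearts, and its groups overlapped once scaled by library, at 0.301 CPM in knockout replicate 3 against 0.260 CPM in control replicate 1. It was too low for the first test, and in the wider one its log2 fold change was -0.94 (SE 0.76, edgeR adjusted p = 0.285).

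Copies of mitochondrial and metabolic genes were among the most abundant of the rest. Oaz1-ps, a copy of the gene of the ornithine decarboxylase antizyme, stood at 0.291, 0 and 0.151 CPM in knockout hearts, against 2.21, 5.80 and 5.52 CPM in control hearts, a log2 fold change of -4.84 (SE 0.62, edgeR adjusted p = 6.60e-05). Got2-ps1, a copy of the mitochondrial aspartate aminotransferase gene, had 4, 8 and 1 counts in knockout hearts, against 15, 75 and 52 in control hearts, a log2 fold change of -3.01 (SE 0.64, edgeR adjusted p = 0.00202). In both, every knockout library was below every control library. Ndufab1-ps, a copy of the gene of the mitochondrial acyl carrier protein, had 0, 3 and 1 counts in knockout hearts, against 15, 54 and 45 in control hearts, with a log2 fold change of -4.32 (SE 0.71, edgeR adjusted p = 0.000341). Vdac3-ps1, a copy of the gene of a channel in the outer mitochondrial membrane, had 2, 1 and 4 counts in knockout hearts, against 14, 48 and 46 in control hearts, with a log2 fold change of -3.49 (SE 0.59, edgeR adjusted p = 0.000392). Scp2-ps2, a copy of the sterol carrier protein gene, had 1, 3 and 0 counts in knockout hearts, against 15, 42 and 35 in control hearts, with a log2 fold change of -4.02 (SE 0.66, edgeR adjusted p = 0.000356). None of these 5 overlapped between the groups.

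Fth-ps3 is a copy of the ferritin heavy chain gene, which encodes the iron-storing protein, and is only 87.7% identical to Fth1. It had 1, 1 and 0 counts in knockout hearts, against 11, 31 and 25 in control hearts, a log2 fold change of -4.47 (SE 0.70, edgeR adjusted p = 0.000261). Akt2-ps, a copy of the gene of a kinase in insulin signalling, had 0, 1 and 0 counts in knockout hearts, against 12, 27 and 17 in control hearts, a log2 fold change of -5.03 (SE 0.78, edgeR adjusted p = 0.000262). With so few knockout counts the size is loosely set: the scaled sum of Akt2-ps was 43.2 times lower in knockout hearts, with an exact 95% counting interval of 7.45 to 1737, and that of Fth-ps3 25.9 times lower (6.88 to 218). DESeq2 gave their log2 fold changes larger SEs, 1.35 for Akt2-ps and 1.19 for Fth-ps3.

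Of the 7 ribosomal protein copies in this fit, 4 have a small subunit parent. Rps10-ps1 had 6, 1 and 1 counts in knockout hearts, against 24, 77 and 60 in control hearts, a log2 fold change of -3.88 (SE 0.60, edgeR adjusted p = 0.000237). Rps10-ps2 had 2, 0 and 0 counts in knockout hearts, against 18, 41 and 37 in control hearts, a log2 fold change of -4.98 (SE 0.70, edgeR adjusted p = 0.000129). The scaled sum of Rps10-ps2 was 37.0 times lower in knockout hearts (exact 95% counting interval 9.98 to 310), and DESeq2 gave its log2 fold change an SE of 1.15. Rps6-ps4, identical to the Rps6 transcript over its whole length, had 4, 0 and 0 counts in knockout hearts, against 21, 55 and 39 in control hearts, a log2 fold change of -4.35 (SE 0.72, edgeR adjusted p = 0.000376). Rps16-ps2 had 0, 2 and 0 counts in knockout hearts, against 9, 12 and 16 in control hearts, with a log2 fold change of -3.62 (SE 0.78, edgeR adjusted p = 0.00216). For each of the 4 the lowest control library was above the highest knockout library.

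The other 3 have a large subunit parent. Rpl10a-ps1 had 2, 3 and 4 counts in knockout hearts, against 25, 57 and 46 in control hearts, a log2 fold change of -3.39 (SE 0.45, edgeR adjusted p = 7.76e-05). Rpl5-ps2 had 3, 1 and 0 counts in knockout hearts, against 10, 13 and 13 in control hearts, a log2 fold change of -2.70 (SE 0.66, edgeR adjusted p = 0.00480). Rpl3-ps1 had 6, 2 and 1 counts in knockout hearts, against 10, 15 and 13 in control hearts, a log2 fold change of -1.67 (SE 0.55, edgeR adjusted p = 0.0249). Rpl3-ps1 and Rpl5-ps2 had the smallest differences of the 7 tested ribosomal protein copies. The call on Rpl3-ps1 was kept in 6 of 14 alternatives, and was lost without control replicate 2 or 3 (edgeR adjusted p = 0.0832 and 0.0615) and without knockout replicate 2 or 3 (edgeR adjusted p = 0.183 and 0.241). That on Rpl5-ps2 did not survive the loss of knockout replicate 3 (log2 fold change of -1.96, edgeR adjusted p = 0.0625).

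The 2 tested copies with the smallest differences were Dnd1-ps and Vmn1r-ps126. Dnd1-ps, a copy of the gene of an RNA-binding protein of germ cells, had 9, 6 and 8 counts in knockout hearts, against 12, 14 and 13 in control hearts. It was the only one of the 22 that was not called, with a log2 fold change of -0.39 (SE 0.37, edgeR adjusted p = 0.405), and its sign turned with factors from snRNA and rRNA features (0.12). Vmn1r-ps126, an unprocessed member of the vomeronasal receptor family, had 10, 13 and 6 counts in knockout hearts, against 36, 20 and 41 in control hearts, a log2 fold change of -1.36 (SE 0.41, edgeR adjusted p = 0.0164). Its call was kept in 9 of 14 alternatives, with adjusted p between 0.00187 and 0.118. For neither copy was control replicate 1 the lowest control library on the CPM scale. Without control replicate 3, knockout replicate 1 or knockout replicate 3 the adjusted p of Vmn1r-ps126 was 0.0596, 0.0633 and 0.0902.

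To read every member, the same test was run on all 1916 features with a sum of at least 20 counts. In this wider test 33.7% of the features were called lower (646) and 24.9% higher (478) in knockout hearts. Of the 96 pseudogenes, 82 were called lower (85.4%) and 0 higher, 36 of 43 with a ribosomal protein parent and 46 of 53 with another. Every one of the 96 fitted log2 fold changes was negative with TMM factors, from -6.87 to -0.06, the lowest being fitted values of members at 0 in knockout hearts, which depend on the prior count. The median was -3.13, or -3.03 with the members at 0 in knockout hearts set to their bounds, beside -0.08 over all 1916 features. Knockout libraries lay below control libraries without overlap in 82 of the 96, beside 40.8% of all features. Other pseudogenes of the same minimum, 404 in all, were called lower in 354 (87.6%) and higher in 1, with a median of -3.29. The wider test moves the zero point: the 1144 features of the first fit had a median log2 fold change of 0.32 in it, against -0.01 in the first fit. In the authors' deposited table, 61 of the 95 members with an adjusted p were under 0.05 and lower in knockout hearts, 0 were higher, and 20.6% of all its features with an adjusted p were lower.

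**Figure D3:**
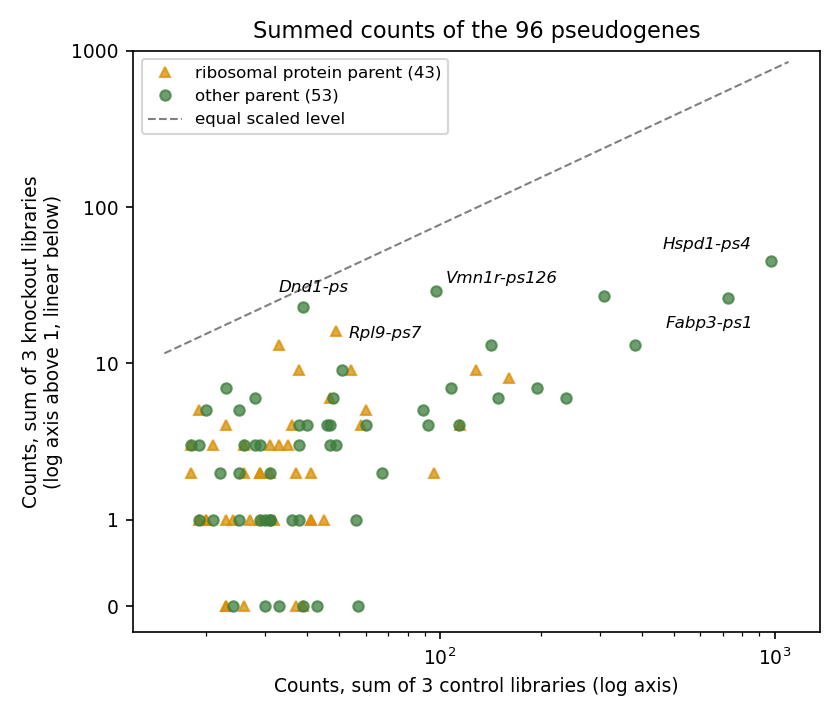
Summed counts of each of the 96 pseudogenes in the 3 knockout libraries (vertical axis, log above 1 and linear below) and the 3 control libraries (horizontal log axis), with triangles for ribosomal protein parents and circles for others. The dashed line marks equal levels after TMM scaling. All points lie below the line on this scaling, 11 of them at 0 knockout counts, and Dnd1-ps lies nearest to it.

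Role groups were set by the first letters of the parent's name only. Their counts of calls, here and below, are to be read beside 85.4% of all 96 members and 33.7% of all 1916 features called lower. Small subunit ribosomal protein copies were called lower in 23 of 24 with a median log2 fold change of -3.29, and large subunit copies in 13 of 19 with a median of -2.53. The median of the small subunit copies at their bounds was -3.21. The difference between the subunits was not tested. Of the 24 small subunit copies, Rps27a-ps2 was not called, with 3, 1 and 1 counts in knockout hearts, against 7, 6 and 6 in control hearts (log2 fold change -1.19, SE 0.84, edgeR adjusted p = 0.218). Of the large subunit copies, Rpl19-ps11, Rpl28-ps1, Rpl7-ps7, Rpl3-ps1, Rpl9-ps7 and Rpl9-ps4 were not called. Rpl31-ps8, also identical to its parent transcript, was called with a smaller difference, at 2, 6 and 1 counts in knockout hearts, against 7, 27 and 20 in control hearts (log2 fold change -1.78, SE 0.60, edgeR adjusted p = 0.00761). Its groups overlapped once scaled by library, at 0.475 CPM in knockout replicate 2 against 0.455 CPM in control replicate 1.

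Members with 0 counts in all knockout libraries numbered 11. Setting the 3 knockout libraries together at 3 counts gives a lower bound on each difference, which takes the control counts as measured. Prkaca-ps1, a copy of the gene of a catalytic subunit of protein kinase A, had 4, 26 and 27 counts in control hearts and was at least 14.7-fold lower in knockout hearts. Ube2d-ps, a copy of a ubiquitin-conjugating enzyme gene, had 4, 20 and 19 counts in control hearts and was at least 11.1-fold lower. The ribosomal protein copies at 0 were Rps15a-ps7, Rps13-ps4, Rps2-ps13, Rpl10-ps1 and Rps6-ps1, which were at least 10.03-, 9.52-, 6.69-, 5.92- and 5.92-fold lower. The others were Oaz2-ps, Uqcrh-ps1, Fth-ps2 and Kansl2-ps, at least 10.03-, 8.49-, 7.72- and 6.17-fold lower. With the counting error of the control libraries taken in too, the lower limits of the exact 95% intervals were below these bounds, from 11.5-fold for Prkaca-ps1 down to 4.44-fold for Rpl10-ps1 and Rps6-ps1. A further 47 members had 1 to 3 counts over the knockout libraries.

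Copies of genes for mitochondrial energy proteins were called lower in 6 of 6 in the wider test, beside 85.4% of all 96 members and 33.7% of all features. Their median log2 fold change was -3.39, or -3.06 at the bounds. Besides Ndufab1-ps these were Uqcrh-ps1 and Uqcrh-ps2, from a subunit of respiratory complex III, Atp5l2-ps and Atp5k-ps2, from subunits of ATP synthase, and Cox20-ps, from an assembly factor of cytochrome c oxidase. Uqcrh-ps2 had 0, 4 and 0 counts in knockout hearts, against 6, 26 and 28 in control hearts (log2 fold change -3.04, SE 0.70, edgeR adjusted p = 0.000100). Cox20-ps had 0, 1 and 0 counts in knockout hearts, against 2, 13 and 14 in control hearts (log2 fold change -3.74, SE 1.06, edgeR adjusted p = 0.00143). Atp5k-ps2 had 1, 0 and 1 counts in knockout hearts, against 1, 11 and 13 in control hearts (log2 fold change -2.70, SE 0.97, edgeR adjusted p = 0.0122). Of the 6 only Atp5k-ps2 overlapped between the groups, through the single count of control replicate 1. Mpc1-ps, from a subunit of the mitochondrial pyruvate carrier and outside this list, had 2, 0 and 3 counts in knockout hearts, against 7, 35 and 47 in control hearts (log2 fold change -3.29, SE 0.62, edgeR adjusted p = 1.99e-06).

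The smaller role groups held few members. Since the groups go by name, parents of like role under other names were left out. An example is the chaperonin gene Tcp1, whose copy Tcp1-ps1 was not called. The chaperone copies listed by name were called lower in 4 of 5 in the wider test. Dnajc19-ps, from a co-chaperone of the mitochondrial import motor, had 1, 0 and 0 counts in knockout hearts, against 3, 19 and 14 in control hearts (log2 fold change -4.05, SE 1.01, edgeR adjusted p = 0.000289). Hsp25-ps1, from the small heat shock protein gene Hspb1, had 4, 1 and 1 counts in knockout hearts, against 9, 7 and 12 in control hearts, and was not called (log2 fold change -1.48, SE 0.74, edgeR adjusted p = 0.0775). Both ferritin copies were lower, Fth-ps2 with 0, 0 and 0 counts in knockout hearts, against 3, 18 and 9 in control hearts. Translation factor copies were lower in 2 of 3. These were Eif4a-ps4, from an RNA helicase gene, and Eif1-ps1, from a factor that selects the start codon, while Eif5al3-ps had an edgeR adjusted p of 0.0906. Gapdh-ps15 (glycolysis), Tubb4b-ps1 (cytoskeleton) and Ube2d-ps (ubiquitin) were the only members of their groups, and each was called lower. The lists of chromatin proteins and of non-coding RNA parents had 0 members. Of the 34 members with a parent outside these lists, 29 were lower.

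There were 16 parents with more than 1 member, and the copies of 14 of them were all called lower in the wider test. The 4 copies of Rps15a had 4 counts in all knockout libraries together, against 113 in the control libraries, with fitted log2 fold changes of -6.36 to -3.03. The 3 copies of Rps6 had 5 counts in knockout hearts, against 157 in control hearts, and the 3 of Rps13 had 9 against 155. The exceptions were Tpt1, with 2 of 3, and Rpl9, with 0 of 2.

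The Rpl9 pair stood nearest to equal levels among the ribosomal protein copies. Rpl9-ps7 had 4, 5 and 7 counts in knockout hearts, against 5, 14 and 30 in control hearts, a log2 fold change of -0.83 (SE 0.54, edgeR adjusted p = 0.186). Rpl9-ps4 had 6, 4 and 3 counts in knockout hearts, against 6, 12 and 15 in control hearts, a log2 fold change of -0.59 (SE 0.61, edgeR adjusted p = 0.413). Both overlapped between the groups, through control replicate 1. In the sequences printed above each of the pair differs from Rpl9 at 1 base, against 2 and 5 bases for the Rps10 copies, which were both called lower. The Tpt1 copies ran the other way: Tpt1-ps3 and Tpt1-ps6, with 0 and 1 differences, were called lower, and Tpt1-ps5, with 6, was not. In the authors' deposited table their log2 fold changes were -1.137 and -0.907 for -ps7 and -ps4, with adjusted p of 0.270 and 0.414.

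The 14 members not called in the wider test were all low: they had 3 to 23 counts in the knockout libraries together and 18 to 49 in the control libraries together, with log2 fold changes of -1.96 to -0.06. They were Rpl19-ps11, Mrip-ps, Wsb2-ps, Rpl28-ps1, Rpl7-ps7, Eif5al3-ps, Hsp25-ps1, Rpl3-ps1, Tcp1-ps1, Rps27a-ps2, Tpt1-ps5, Rpl9-ps7, Rpl9-ps4 and Dnd1-ps, of which Rpl3-ps1 had been called in the first fit. A missed threshold at such counts does not show equal levels. Just inside the minimum of 20 counts, Eif1-ps1 had 0, 1 and 0 counts in knockout hearts, against 2, 10 and 7 in control hearts, and Rps6-ps3 and Rpsa-ps2 also summed to 20. Just outside, at 19 counts, Rpl17-ps9 had 0 counts in each knockout library, against 6, 6 and 7 in control hearts, and Rpl10-ps5, Dynlt1-ps1, Rps18-ps1 and Rps18-ps3 had the same sum.

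Copies near to their parent and copies far from it were both lower in knockout hearts. Across the 95 members with a sequence, which share the same 6 libraries, identity and log2 fold change of the wider test had a Spearman rho of 0.06 and a Pearson r of 0.18. Both take in the 11 members at 0 in knockout hearts, whose fitted values depend on the prior count. The calls that follow stand beside 85.4% of all 96 members and 33.7% of all features called lower. Of the 11 copies identical to a coding transcript, 10 were called lower with a median log2 fold change of -3.23. Of the 16 copies under 95% identity, 14 were called lower with a median of -3.28. Copies with an unbroken shared run of at least 100 nt were called lower in 67 of 79 with a median of -3.15, and those with shorter runs in 14 of 16 with a median of -3.28. Among the divergent copies with the most counts, Hspd1-ps4 shared 20.7% of its 20-base words with the best matching coding transcript, Hspa9-ps1 38.0% and Fth-ps3 14.7%, beside 100% for Tpt1-ps3 and Rps6-ps4.

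**Figure D4:**
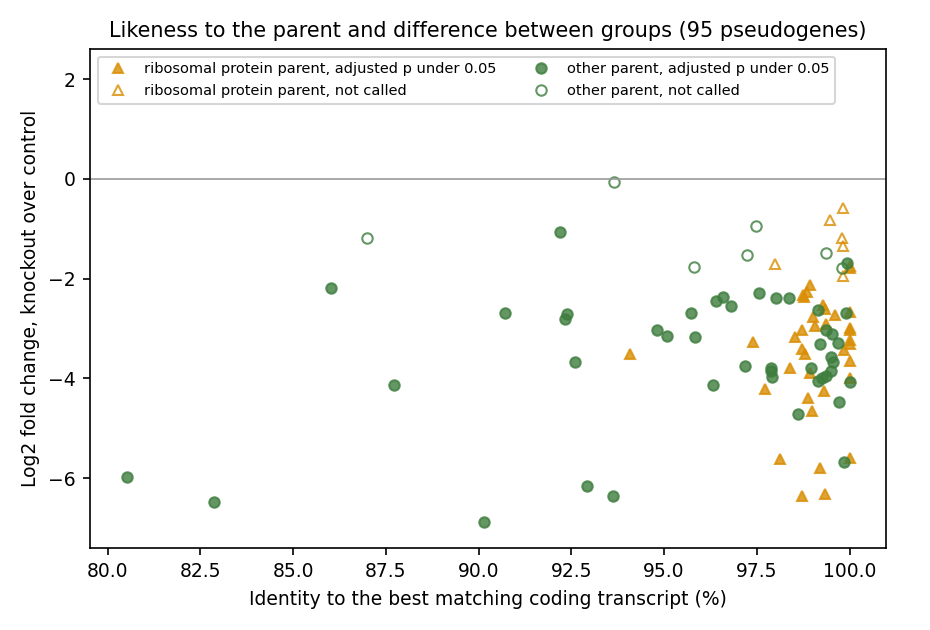
Log2 fold change, knockout over control, in the wider test (vertical axis) against identity to the best matching coding transcript (%, horizontal axis) for 95 pseudogenes. Triangles have a ribosomal protein parent, circles another parent, and open symbols were not called. Filled points are found from 80.5% to 100% identity, and all points lie below 0.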

How the data were processed

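Small RNA was counted in hearts of 3 knockout and 3 control mice, grouped by the sample titles. The authors deposited raw counts per feature, 1 column per mouse, and every test used these. The authors' deposited comparison gave each feature's name and type, and its log2 fold changes and standard errors, p-values, mean normalized signal and Wald score, per the file headers. Its column of means, log2 fold changes and adjusted p-values were printed only where named, and the score was not printed. The submitters' processing notes name build mm10 and the tools DESeq2 1.16.1, featureCounts 1.5.1, Bowtie2 2.2.9 and cutadapt 1.14. The sources used here do not give the annotation, the strand setting, the treatment of reads with several matches or the merging of technical replicates. There were 0 columns of other samples. The deposited normalized counts were not used.

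Low features were removed with filterByExpr of edgeR (by group, at a minimum count of 10 and a minimum total of 15). Libraries were scaled by TMM factors (0.949, 0.828 and 0.889 in knockout and 1.14, 1.09 and 1.15 in control replicates 1 to 3) and tested in R 4.3.3 by the quasi-likelihood functions (glmQLFit, glmQLFTest) of edgeR 4.0.16 without covariates. Adjusted p-values (Benjamini-Hochberg) are over all features tested, called under 0.05, and the biological coefficient of variation was 0.217. SEs of edgeR values are the absolute log2 fold change over the square root of the F statistic. The wider test replaced the filter by a minimum sum of 20 counts. CPM are counts per 1000000 of the TMM-scaled library. Lower bounds set the knockout group at 3 counts, and ratios and shares have exact 95% intervals for counting error only. Reads were not marked by molecular identifiers. The test with filterByExpr was checked on simulated counts with changes in both directions, and the wider test was not checked in this way. Sequences were aligned with BLASTN 2.17.0 to GENCODE M21 coding transcripts, and shared words had 20 bases. Python 3.11.15 was used with matplotlib 3.10.9, SciPy 1.17.1 and pandas 2.3.3.

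The members, the role lists and the tests were chosen with earlier results of these data known. The rule for named members took the 8 most abundant of each parent class, up to 4 per direction and class with the largest change among those tested, those next to the minimum of 20 counts, and every parent with 2 or more members. It named 45. The other members named, from Dnd1-ps, Vmn1r-ps126, Rpl3-ps1, Ndufab1-ps, Vdac3-ps1, Scp2-ps2, Mpc1-ps and Prkaca-ps1 to those not called, those of small role groups and those listed by annotation, were chosen after their values were seen. Alternatives were 4 other scalings, DESeq2 1.42.0, 2 other minimums on counts, the replicate number as a block, and each library left out.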

Additional observations from a re-analysis of the deposited data

How the results depend on the processing

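The count of members called lower was 19 to 22 of 22 under the 4 other scalings, 20 with DESeq2 and 21 with the replicate block, beside 21 in the report, and 0 members were called higher under any alternative run. Without a filter on low counts 1141 of 9254 features were called, and with the minimum sum of 20 counts 1124 of 1916, beside 574. Members called were 75 and 82 of 96 in these fits, 34 and 36 with a ribosomal protein parent and 41 and 46 with another. Leaving out each library in turn gave 486 to 908 features called, 18 to 63 members, 5 to 25 with a ribosomal protein parent and 13 to 38 with another. The highest of these came without control replicate 1, and the 3 counts of members were over 1.5 times as high without any 1 of the knockout replicates too, where more members passed the filter (64 or 65 against 22). The log2 ratio of shares ran from -3.85 to -3.36 for ribosomal protein copies and from -4.24 to -3.73 for other copies with each library left out, and was -3.07 and -3.43 over counts outside mitochondrial and snoRNA features. Scaling by total counts, miRNA, snoRNA, or snRNA and rRNA features moved the median of all features by -0.34, -0.13, -0.61 and 0.51, and higher calls then made up 28.3%, 38.1%, 20.1% and 64.0% of all calls, beside 46.2%. Dnd1-ps turned to a log2 fold change of 0.12 (edgeR adjusted p = 0.826) with snRNA and rRNA factors and was called lower with snoRNA factors (-0.99, edgeR adjusted p = 0.0374). Rpl3-ps1 was called in 6 and Vmn1r-ps126 in 9 of 14 alternatives, Rpl5-ps2 in 13, and the other 18 tested members in every alternative that tested them. As deviations from their group means, same-numbered knockout and control libraries had correlations of -0.12, -0.013 and -0.17. They thus showed no shared deviation, but 3 libraries per group cannot exclude that the mice were paired. The replicate block gave 536 calls, 242 higher and 294 lower. With 0 to 3 knockout counts in 58 members, depth limits the size of their differences.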

Other observations

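Tes3-ps had 2, 1 and 0 raw counts in knockout hearts, against 7, 18 and 22 in control hearts, but a mean of 0 in the authors' deposited table. It was 1 of 270 features with raw counts and a mean of 0 there. In the wider test it was lower in knockout hearts (log2 fold change -3.10, SE 0.77, edgeR adjusted p = 0.000292).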
